A study of Rattus norvegicus with 20 samples.

Results

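Genes of lesion phagocytes and activated microglia, namely Gpnmb, Spp1, Trem2, Tyrobp, Cd68, Itgax, Cst7, Igf1, Msr1 and Clec7a, were followed by RNA-seq through the brain and spinal cord of rats with a cervical contusion. They were chosen by name, with earlier results of these data known. Each of the 10 occurred once among the 30443 genes listed, and all 10 were among the 15210 genes tested, those that reached 1 FPKM somewhere. FPKM is a level scaled by transcript length and by the mapped fragments of a library. Cst7 passed that filter only through the white matter of stimulated animal 2. Itgax and Msr1 reached 1 FPKM in 4 and 5 libraries, only at the lesion or under the electrodes of stimulated animals. Their tests in those places are thus not independent of the filter. The animals were 4 adult female Long-Evans rats, an outbred strain, of WT genotype and about 6 to 8 months old. All 4, controls included, received a hemicontusion of the cord at cervical level 4 with a displacement of 0.7 mm, and later electrodes in the opposite motor cortex. In 2 stimulated animals the cortex was driven for 5 hours a day at 10 Hz, in cycles of 5 minutes on and 2 minutes off, at 80% of the current that moved the forelimb. The 2 control animals were connected without current, so no animal was uninjured or without an implant, and differences between regions are differences between places in injured animals.

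Each animal gave 5 libraries. Region 1 was a 5 mm3 block of white matter under the electrodes and region 2 the matching block of the hemisphere without electrodes. Region 3 was cord rostral to the injury, region 4 the lesion and region 5 cord caudal to it, all with gray and white matter. Markers followed these labels in part: motor neuron genes such as Chat summed to at most 3.21 FPKM in the white matter and at least 38.3 in the cord, but neuronal genes summed to 933 to 1728 FPKM in the white matter blocks against 681 to 1248 in the cord, and oligodendrocyte genes to 708 to 2943 against 7403 to 10779. The blocks labelled white matter therefore carried much neuronal RNA. One animal stood apart. In stimulated animal 2 the 6 neutrophil genes summed to 125 FPKM in region 1, against 1.52 to 3.74 in the other animals, and to 12.6 in region 2, against 0.916 to 1.31. For many tests that rest on this animal, values without it are also given. Levels set against general myeloid genes, and correlations between genes, are given with all animals only. FPKM values carry no read numbers, and the read totals that the study lists were not used here, so no counting error is given and the error is the spread between animals. In bulk tissue, more cells of a type and more RNA per cell cannot be told apart.

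Microglia are the resident macrophages of the central nervous system, and after damage they are joined by macrophages from blood. Both take up myelin and dead cells and can turn on a shared set of genes for lipid sensing, lysosomes and matrix. In this set TREM2, a receptor for lipids and lipoproteins, signals through the adaptor TYROBP. CLEC7A binds fungal and other glucans, MSR1 is a scavenger receptor, and ITGAX is the integrin chain CD11c. CD68 is a lysosomal membrane protein, cystatin F, encoded by Cst7, inhibits lysosomal cathepsins, and GPNMB is a membrane glycoprotein of phagocytes and pigment cells. Osteopontin, encoded by Spp1, and IGF1 are secreted. Neither is made by phagocytes alone: neurons and other cells also express Spp1 and Igf1.

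Sequences upstream of the start site are shown for the 4 genes in which a searched motif was found. RefSeq (build GRCr8) gave 250 upstream bases for 8 of the 10 genes, while Tyrobp and Msr1 were not matched. The motifs were chosen after these sequences had been read, and were searched on both strands. They were the M-box TCACATGA, found in 0.977% of 33469 promoters of the same length, the AP-1 site TGANTCA, in 6.34%, the core of PU.1 sites GAGGAA, in 23.3%, and the E-box CACGTG, in 5.59%. Capitals mark the matches, and the last base printed is the one before the start. Gpnmb lies at chr4:79340878-79341127 on the plus strand, Cd68 at chr10:54882442-54882691 on the minus strand, Trem2 at chr9:20151780-20152029 on the minus strand and Itgax at chr1:192149799-192150048 on the plus strand.
Gpnmb: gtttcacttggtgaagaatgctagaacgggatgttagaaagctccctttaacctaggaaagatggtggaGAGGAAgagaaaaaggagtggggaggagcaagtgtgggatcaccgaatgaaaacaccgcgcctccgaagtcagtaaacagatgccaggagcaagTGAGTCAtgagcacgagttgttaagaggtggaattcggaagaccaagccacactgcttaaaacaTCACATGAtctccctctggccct
Cd68: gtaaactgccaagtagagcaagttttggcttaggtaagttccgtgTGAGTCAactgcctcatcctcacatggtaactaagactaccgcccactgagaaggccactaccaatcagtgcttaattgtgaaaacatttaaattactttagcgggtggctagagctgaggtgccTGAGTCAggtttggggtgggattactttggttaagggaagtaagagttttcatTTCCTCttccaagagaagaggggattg
Trem2: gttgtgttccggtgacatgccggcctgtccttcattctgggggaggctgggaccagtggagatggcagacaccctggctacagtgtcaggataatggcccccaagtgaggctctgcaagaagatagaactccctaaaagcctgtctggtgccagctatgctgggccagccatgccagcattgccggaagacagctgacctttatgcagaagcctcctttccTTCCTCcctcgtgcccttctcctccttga
Itgax: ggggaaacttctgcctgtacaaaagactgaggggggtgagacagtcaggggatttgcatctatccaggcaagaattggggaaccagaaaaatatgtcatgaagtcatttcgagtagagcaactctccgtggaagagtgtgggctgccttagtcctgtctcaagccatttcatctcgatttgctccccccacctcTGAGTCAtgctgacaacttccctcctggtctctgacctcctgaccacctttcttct
Gpnmb held an M-box 23 bases before the start, an AP-1 site at 87 and a PU.1 core at 181. Cd68 held AP-1 sites at 205 and 80 and a PU.1 core at 27, Trem2 a PU.1 core at 29 and Itgax an AP-1 site at 56. No match was found for Spp1, Cst7, Igf1 or Clec7a, and none of the 8 held the E-box. A match is a description of the letters only.

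On average the genes were highest at the lesion. For 9 of the 10 the mean log2 level over 4 animals was higher in region 4 than in any other region, and the exception was Cst7, highest in region 1. Within animals, 9, 10 and 9 of the 10 genes were higher at the lesion than in region 1 in control 1, control 2 and stimulated 1, but in stimulated animal 2 only 2 were, and 8 were higher in region 1. Region 2 or, for Cst7 and Msr1, region 3 was lowest. Gpnmb was the most abundant of the 10 at the lesion in every animal: it reached 434 and 322 FPKM in the controls and 293 and 119.7 in the stimulated animals, whereas rostral cord held 31.0, 17.4, 31.9 and 18.3 in the same order. No lesion library overlapped a rostral one.

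**Figure D1:**
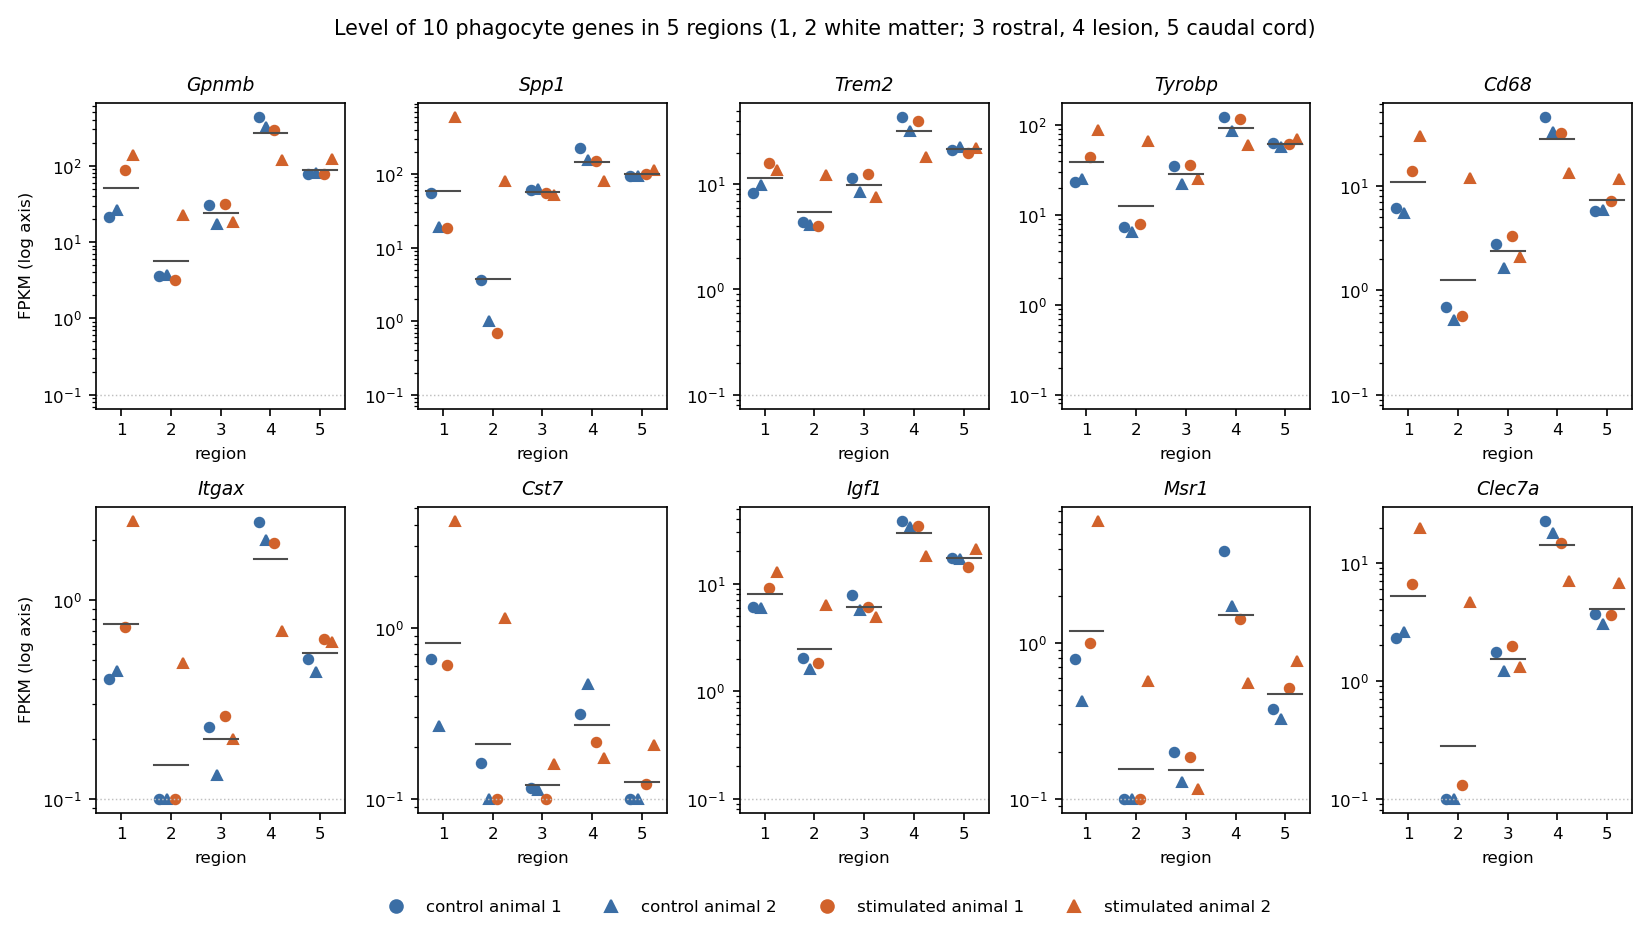
Level of each gene in FPKM (log axis; dotted line, the floor of 0.1) in the 5 regions, 1 point per animal, with a bar at the geometric mean of the 4 animals. Gpnmb reached 119.7 to 434 FPKM at the lesion (region 4) against 17.4 to 31.9 in rostral cord (region 3), and stimulated animal 2 stood above the other 3 animals in region 2 for all 10 genes.

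Between the lesion and rostral cord, 8 of the 10 genes were higher by limma at an adjusted p under 0.05, against 6.78% of all genes tested, and in all 10 the 4 lesion libraries lay above the 4 rostral ones, against 13% of genes. The median log2 difference of the 10 was 2.66, against -0.02 over all genes. Among surface and lysosomal genes, Cd68 was higher by 3.58 ± 0.76 on the log2 scale (SE, adjusted p = 0.0035 by limma) and Gpnmb by 3.48 ± 0.61 (adjusted p = 0.00093). Cd68 held 45.2, 32.6, 31.9 and 13.1 FPKM at the lesion, in the order control 1, control 2, stimulated 1 and stimulated 2, and 2.75, 1.61, 3.31 and 2.07 rostrally. Stimulated animal 2 had the lowest lesion level for these genes.

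The pattern receptors followed. Clec7a held 22.8, 17.9, 14.7 and 7.11 FPKM at the lesion and 1.22 to 2.00 rostrally, a log2 difference of 3.22 ± 0.92 (adjusted p = 0.021 by limma). Msr1 and Itgax were scarce genes, with 3.87 and 2.47 FPKM at most at the lesion, and differed from rostral cord by 3.31 ± 0.72 and 3.01 ± 0.57. The lipid receptor and its adaptor moved less: Trem2 held 18.3 to 43.6 FPKM at the lesion and 7.63 to 12.4 rostrally, a log2 difference of 1.70 ± 0.32 (adjusted p = 0.0016 by limma), and Tyrobp 60.3 to 123 against 21.8 to 36.0, a difference of 1.69 ± 0.55 (adjusted p = 0.039 by limma).

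Of the secreted factors, Igf1 was higher at the lesion by 2.31 ± 0.35 (adjusted p = 0.0004 by limma), with 38.3, 33.9, 34.3 and 18.0 FPKM against 7.89, 5.67, 6.10 and 4.88. Spp1 held 226, 157, 151 and 80.1 FPKM against 60.3, 62.8, 54.8 and 52.3, and its difference of 1.33 ± 1.13 did not pass (adjusted p = 0.43 by limma). That SE comes from all 20 libraries, in which Spp1 ranged from 0.698 to 593 FPKM. Cst7, at 0.172 to 0.470 FPKM against 0.1 to 0.160, did not pass either (1.17 ± 0.76, adjusted p = 0.29 by limma). Without stimulated animal 2 all 10 passed, without control animal 1 only 4 and without control animal 2 only 2, Gpnmb and Igf1, while the share of all genes called higher moved with them, to 15.7%, 1.37% and 0.874%.

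Caudal cord lay between. Region 5 was above region 3 without overlap in 9 genes, all but Cst7, against 20.5% of genes, but 1 passed the test, Igf1, against 2.77% (1.51 ± 0.35, adjusted p = 0.022 by limma); Igf1 no longer passed without control 1, control 2 or stimulated 1, and 6 genes passed without stimulated animal 2, against 5.40% of genes. Gpnmb held 78.7, 80.5, 78.0 and 122 FPKM there and Trem2 19.9 to 22.6. Caudal values of Gpnmb were alike in 3 animals and higher in stimulated animal 2.

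The lesion exceeded caudal cord in the mean of all 10 genes, and Cd68, Itgax and Clec7a did so without overlap, against 1.84% of genes. Within animals, all 10 were higher at the lesion in control 1, control 2 and stimulated 1. In stimulated animal 2 only 3 were, and 7 were lower. None of the 10 passed the limma test, against 0.934% of genes, although 5 had an unadjusted p under 0.05, against 29.0% of genes in either direction. Over all genes the median difference was -0.14, and relative to it the median of the 10 genes, 1.34, was further up. Stimulated animal 2 decided the count: without it 8 genes passed, all but Spp1 and Tyrobp, against 2.87% of genes, with Cd68 at 2.54 ± 0.33 (adjusted p = 0.0021 by limma) and Gpnmb at 2.12 ± 0.41. Its lesion library was the lowest of the 4 for all 10 genes, and held 223 FPKM of pan-myeloid genes against 299 to 436 in the other animals. The part of that in the result was not tested.

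Under the electrodes the genes were higher than in the other hemisphere. The 8 genes called higher in region 1 than in region 2, against 6.86% of genes, were Clec7a (4.25 ± 0.92 on the log2 scale, adjusted p = 0.01 by limma), Spp1 (3.96 ± 1.13), Gpnmb (3.19 ± 0.61), Cd68 (3.12 ± 0.76), Msr1, Itgax, Igf1 and Trem2. Tyrobp (1.63 ± 0.55, adjusted p = 0.073 by limma) and Cst7 (1.98 ± 0.76, adjusted p = 0.11 by limma) did not pass. Region 1 exceeded region 2 in 4 of 4 animals for all 10 genes, a pattern shown by 22.2% of genes. In region 2, Itgax and Msr1 stood at the floor of 0.1 FPKM in 3 animals, and Clec7a and Cst7 in 2, so their fitted differences depend on that floor.

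The 4 libraries of region 1 nevertheless overlapped those of region 2 for every one of the 10 genes, against 4.40% of genes without overlap, because of 1 library. In region 2, Gpnmb held 3.63, 3.71 and 3.15 FPKM in 3 animals and 22.5 in stimulated animal 2. Cd68 held 0.695, 0.514 and 0.567 FPKM and then 11.8, and Clec7a 0.1, 0.1, 0.130 and then 4.63. Spp1 held 3.58, 1.01 and 0.698 FPKM and then 79.6. The same library held 303 FPKM of pan-myeloid genes against 41.3 to 49.2, 116 of 9 genes of blood-derived and border macrophages against 6.02 to 9.61, and 177 of homeostatic microglia genes against 74.4 to 77.0. Without stimulated animal 2 all 10 genes passed, against 21.6% of genes, with Clec7a at 4.96 ± 0.34 (adjusted p = 4.2e-06 by limma). Without any of the other 3 animals 0 passed by limma, against 0.0855% to 0.460% of genes, while with all 4 animals all 10 had an unadjusted p under 0.05, against 25.2% of genes in either direction.

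Rostral cord and the white matter under the electrodes differed by gene. Cd68, Itgax, Cst7 and Msr1 were lower in region 3 than in region 1, against 19.3% of genes called lower, with Msr1 lower by the most (-2.96 ± 0.72, adjusted p = 0.0022 by limma) and Cst7 next (-2.77 ± 0.76). In region 3 Itgax, Cst7 and Msr1 held at most 0.261, 0.160 and 0.201 FPKM, so their differences depend on the floor of 0.1. Under other settings with all animals, Msr1 ranged from -3.04 to -1.08 and Cst7 from -2.79 to -0.87. Cst7 passed the filter only through the white matter of stimulated animal 2, so its call is not independent of the filter. Spp1, Trem2, Igf1 and Tyrobp had differences of -0.03 to -0.43 and Gpnmb one of -1.10 ± 0.61, none of which passed. Clec7a (-1.78 ± 0.92) did not pass either, although it joined those 4 in lying below region 1 without overlap, against 17.3% of genes. Without stimulated animal 2 Spp1 stood higher in region 3, by 1.13, and Tyrobp by 0.03. In the order of the regions, region 4 was followed by region 5 for Gpnmb, Spp1, Trem2, Tyrobp and Igf1, and by region 1 for Cd68, Itgax, Msr1 and Clec7a. The first 2 regions of the order did not differ by limma for any of the 10 genes with all animals kept. Without stimulated animal 2, region 4 was called above region 1 for 9 genes, against 37.7% of genes, with a median difference of 2.15. It was then called above region 5 for 8, against 2.87%. For Cst7 the call depended both on the fit and on the animals kept. Its log2 difference of region 4 against region 1 was -1.59 ± 0.76 (adjusted p = 0.085 by limma) and passed with animal as a block (adjusted p = 0.049 by limma), with quantile normalization (adjusted p = 0.023 by limma) and without control animal 2 (adjusted p = 0.039 by limma).

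Stimulation was the other question. No gene of the 10 passed the limma test in any region, where 0% of all genes did in regions 1 to 4, and 0.00657% rose and 0.0131% fell in region 5. At an unadjusted p under 0.05 there were 6 of the 10 in region 1, 0 in region 2, 1 in region 3 (Spp1), 1 in region 4 (Cst7) and 2 in region 5 (Itgax and Msr1), against 5.44%, 1.41%, 3.43%, 2.24% and 3.59% of all genes. With 2 animals against 2 an exact permutation test cannot go below 0.333. In region 1 the 10 log2 differences were all positive, with a median of 1.75 against -0.03 over all genes. Without stimulated animal 2, 9 were positive and the median was 0.82. General markers moved with them: all 10 pan-myeloid genes were positive, with a median of 1.33, astrocyte genes summed to 1403 and 1317 FPKM in the stimulated animals against 887 and 904, and neuronal genes to 1337 and 933 against 1467 and 1470. Their part in the result was not tested. Both stimulated animals exceeded both controls for 8 genes, against 21.2% of genes, the exceptions being Spp1 and Cst7. Gpnmb held 21.2 and 26.0 FPKM in the controls and 88.3 and 137 in the stimulated animals, a log2 difference of 2.23 ± 0.27 (adjusted p = 0.71 by limma). Clec7a held 2.30 and 2.58 against 6.64 and 19.8, and Cd68 6.09 and 5.47 against 13.9 and 29.6.

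Spp1 in region 1 showed how far 1 animal could carry a value. It held 55.7 and 19.1 FPKM in the controls and 18.6 and 593 in the stimulated animals, and its log2 difference of 1.69 ± 1.90 turned to -0.81 without stimulated animal 2. Cst7 held 0.659, 0.267, 0.607 and 4.21 FPKM. The region 1 library of stimulated animal 2 also held 77.4 FPKM of S100a9, a calprotectin subunit of neutrophils, against 0.1 to 1.13 in the other animals, 48.9 of T cell genes against 5.91 to 14.3, 116 of blood-derived and border macrophage genes against 12.0 to 31.3, and 167 of fibroblast genes against 35.5 to 59.0. Most of its T cell sum was Cd4, which rat macrophages also carry, at 30.0 FPKM, with Cd3e at 1.28. The part of these cells in the result was not tested. In stimulated animal 1, 9 of the 10 genes were above the mean of the controls, with Gpnmb higher by 1.91, Clec7a by 1.45 and Cd68 by 1.26 on the log2 scale. Its neutrophil sum was 3.74 FPKM against 3.11 and 1.52 in controls 1 and 2. Its pan-myeloid sum was 192 against 133 and 115, and its oligodendrocyte sum 2943 against 1729 and 1890. The part of these differences in its values was not tested.

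**Figure D2:**
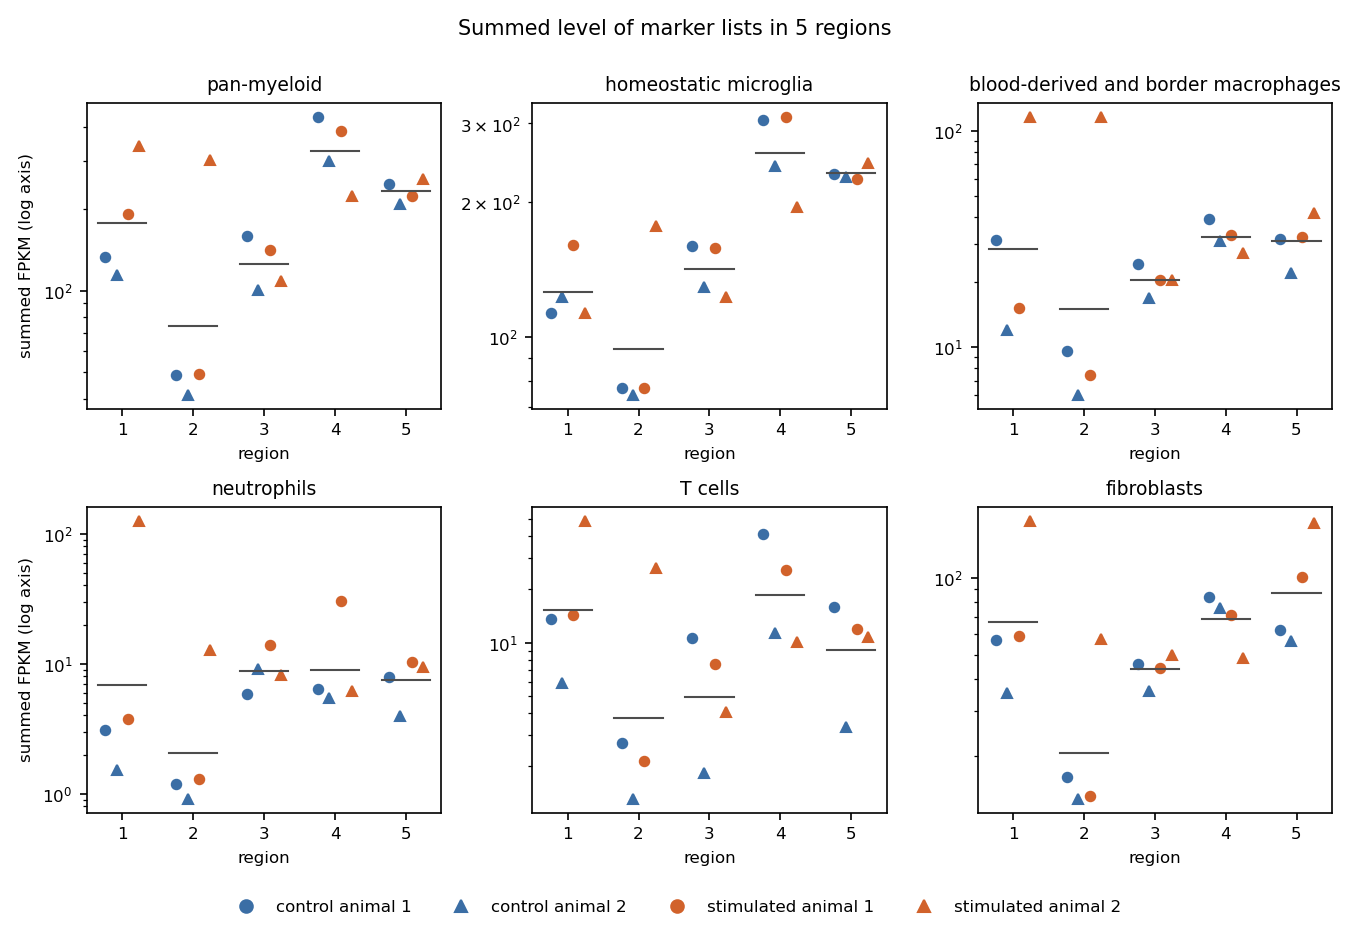
Summed FPKM (log axis) of 6 marker lists in the 5 regions, 1 point per animal, with a bar at the geometric mean. Stimulated animal 2 held 125 FPKM of neutrophil genes in region 1 against 1.52 to 3.74 in the other animals, and 303 of pan-myeloid genes in region 2 against 41.3 to 49.2.

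At the lesion the direction was opposite. All 10 log2 differences were negative, from -0.30 to -1.54, with a median of -0.92 against 0.00 over all genes, and both stimulated animals were below both controls for 7 genes, against 7.69% of genes. Trem2, Tyrobp and Igf1 overlapped. Cst7 was the gene with an unadjusted p under 0.05 (-0.997 ± 0.25, adjusted p = 1 by limma). It held 0.312 and 0.470 FPKM in the controls and 0.214 and 0.172 in the stimulated animals, near the floor of 0.1. Under other settings with all animals its difference ranged from -0.997 to -0.22. Gpnmb differed by -0.997 ± 0.53 and Msr1 by -1.54 ± 0.65, and stimulated animal 2 was the lowest for each. Without it the median of the 10 was -0.29, the differences of Gpnmb and Msr1 were -0.35 and -0.85, and those of Trem2 and Tyrobp turned to 0.12 and 0.17. At the lesion 0 of 10 pan-myeloid genes were positive, fibroblast genes summed to 71.7 and 48.4 FPKM in the stimulated animals against 83.8 and 76.4, and Schwann cell genes to 160.2 and 135 against 189 and 197. Neutrophil genes summed to 30.4 FPKM in stimulated animal 1 against 5.44 to 6.40 in the other animals. The part of these cells in the lesion values was not tested.

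Gpnmb, Cd68, Itgax, Msr1 and Clec7a, 5 of the 10 genes, were above the controls without overlap in region 1 and below them without overlap in region 4, against 2.24% of genes. The difference between the effects was tested within animals, in a comparison added after the data were seen. It was positive for all 10, from 1.16 for Trem2 to 3.63 for Msr1, with a median of 2.67 against -0.03 over all genes, and none passed by limma (adjusted p = 0.52, and 0.61 for Spp1), while Gpnmb, Trem2, Cd68 and Clec7a had an unadjusted p under 0.05, against 8.30% of genes. Without stimulated animal 1, 7 passed, against 6.23% of genes called higher, with Gpnmb at 4.18 ± 0.39 (adjusted p = 0.042 by limma), and without stimulated animal 2, 0 did by limma, with a median of 1.19 and Spp1 at -0.49.

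In the remaining regions the differences were smaller or rested on 1 animal. In region 2 all 10 were positive, with a median of 1.33, and without stimulated animal 2 only 5 were, with a median of -0.04. There only 2 genes, Tyrobp and Clec7a, did not overlap, against 20.2% of genes, and stimulated animal 1 lay below both controls for Gpnmb, Spp1 and Trem2. For Clec7a both controls stood at the floor of 0.1 FPKM and stimulated animal 1 held 0.130, so its lack of overlap depends on that floor. The effect in region 1 differed from that in region 2 by -0.72 to 1.03, positive for 4 of the 10 genes (10 of 10 without stimulated animal 2), with 0 past the limma test and 0 at an unadjusted p under 0.05, against 3.78% of genes. In rostral cord the median difference was 0.09, and Spp1 was below the controls without overlap, 54.8 and 52.3 FPKM against 60.3 and 62.8, against 24.7% of genes. In caudal cord 9 of 10 were positive, with a median of 0.35 (7 of 10 and 0.11 without stimulated animal 2), and Spp1, Cd68, Itgax, Cst7 and Msr1 were above without overlap, against 18.5% of genes. For Cst7 both caudal controls stood at the floor, against 0.122 and 0.205 FPKM in the stimulated animals. Fibroblast genes there summed to 100.4 and 164 FPKM in the stimulated animals against 62.2 and 56.5, and Schwann cell genes to 373 and 368 against 197 and 162. Their part in the caudal values was not tested.

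**Figure D3:**
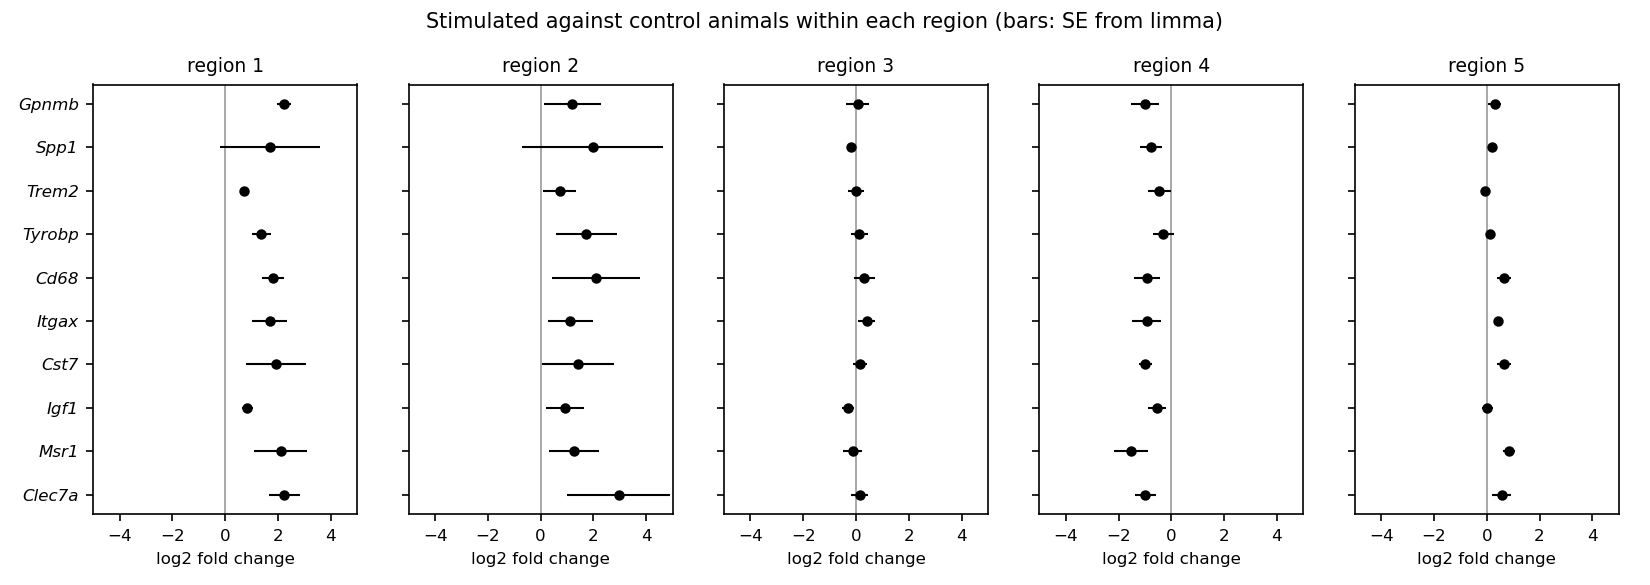
Log2 fold change of stimulated against control animals for each gene (rows) in each region (panels), with bars for the SE from limma, 2 animals per group. In region 1 all 10 lie above 0, from 0.71 to 2.24, and in region 4 all 10 lie below 0, from -0.30 to -1.54, and none passed the adjusted test.

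In bulk tissue a level can move with the amount of phagocyte RNA, and how far each gene did was not tested. Each gene was therefore also set against the mean log2 level of 10 pan-myeloid genes, among them Csf1r, the receptor that microglia need for survival, and Aif1, which encodes IBA1. Tyrobp kept close to them: its distance ranged from 1.38 to 2.12 on the log2 scale over the 20 libraries, a width of 0.75, while its own level ranged over 4.23. Trem2 also stayed in a narrow band on average, with region means from -0.08 to 0.50. Gpnmb, Cd68 and Clec7a did not keep a constant distance. Gpnmb was 0.34 ± 0.28 (SD, n = 4) above the pan-myeloid mean in region 2, 1.58 ± 0.20 in rostral cord, 2.06 ± 0.65 under the electrodes, 2.54 ± 0.23 in caudal cord and 3.52 ± 0.41 at the lesion. Cd68 was -1.82 ± 0.67 in region 2 and -1.76 ± 0.23 in region 3, and 0.28 ± 0.37 at the lesion. Clec7a ran from -3.98 ± 1.21 in region 2 to -0.68 ± 0.37 at the lesion, with both controls at the floor in region 2.

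**Figure D4:**
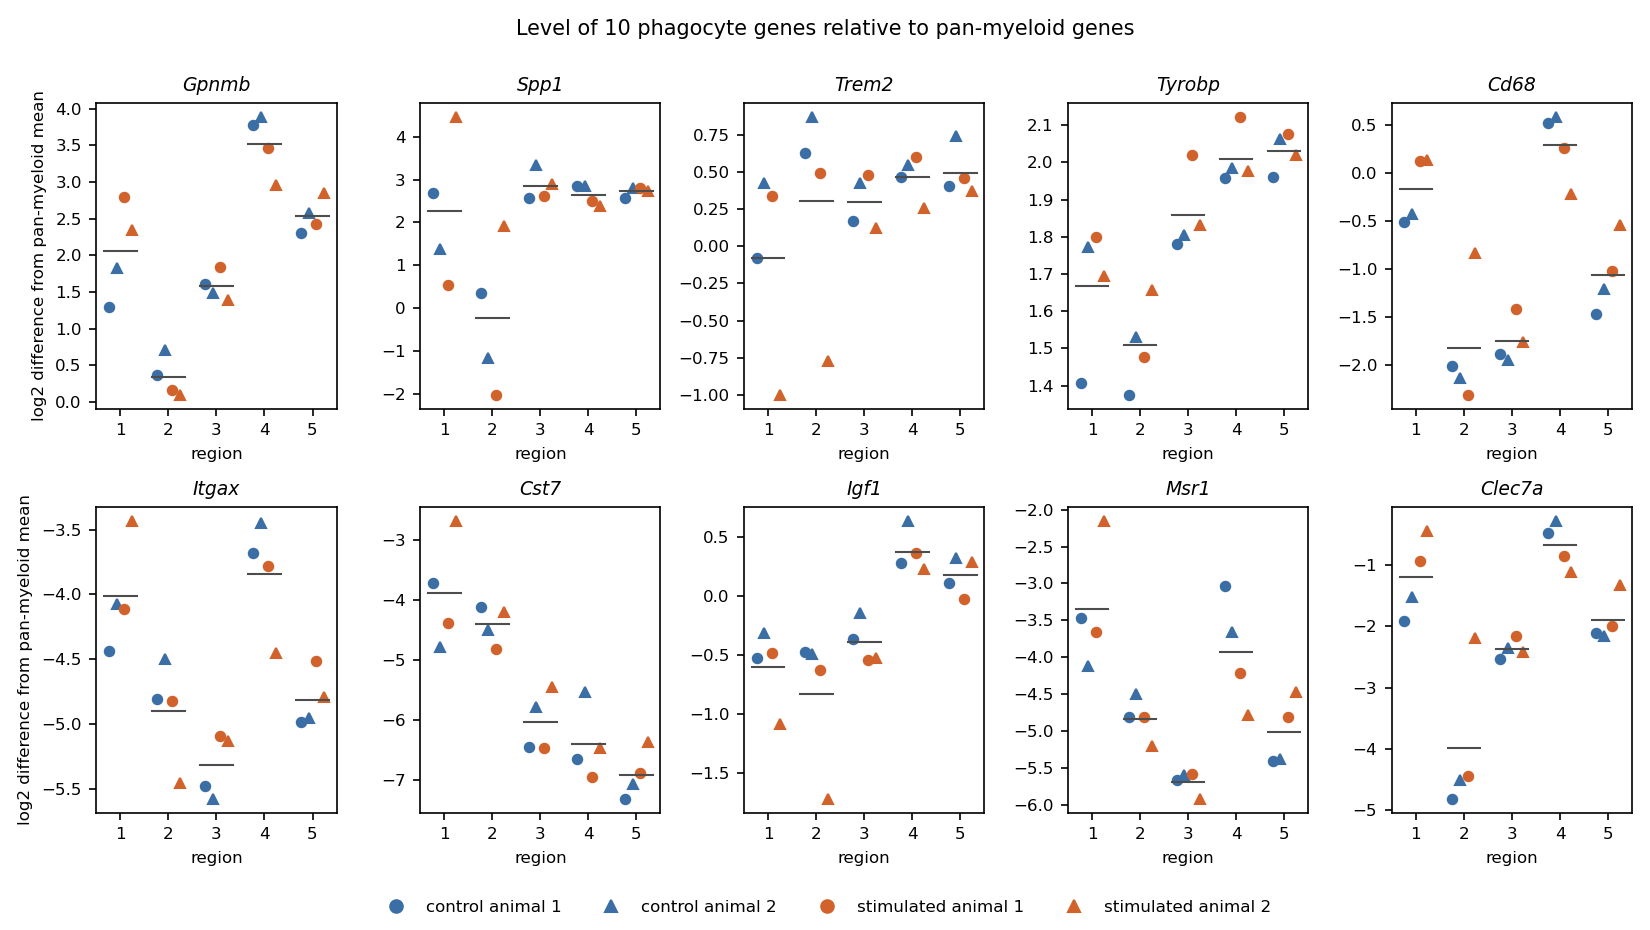
Log2 FPKM of each gene minus the mean log2 FPKM of 10 pan-myeloid genes, by region, 1 point per animal, with a bar at the mean; the scale differs between panels. Tyrobp stays between 1.38 and 2.12 in all 20 libraries, whereas Gpnmb runs from 0.34 on average in region 2 to 3.52 at the lesion.

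Spp1 kept a nearly constant distance in the cord, 2.86 ± 0.35, 2.64 ± 0.24 and 2.72 ± 0.11 in regions 3, 4 and 5, and varied in the white matter, -0.23 ± 1.73 in region 2 and 2.26 ± 1.71 in region 1. Cst7 ran the other way from Gpnmb, -3.89 ± 0.92 in region 1 and -6.41 ± 0.61 at the lesion, although many cord values were at or near the floor. Trem2 was lowest against the pan-myeloid genes in stimulated animal 2, at -0.998 in region 1 and -0.77 in region 2, against -0.08 to 0.87 in the other white matter libraries. In the same 2 libraries Igf1 was also lowest, at -1.09 and -1.72. The full set of pan-myeloid sums stands in the plot of marker lists.

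Most of the 10 genes were correlated over the 20 libraries, which span 5 unlike regions, and Cst7 least. The 45 pairwise Pearson correlations of log2 FPKM ranged from 0.17 to 0.98 with a median of 0.89, and the median for Cst7 was 0.43, the points sharing 4 animals and 5 regions. Among the genes most like the mean of the 10 were Cmtm3 (r = 0.99 over 20 libraries), Myo1f, Fermt3 and Lilrb3. Most like Spp1 alone were Tmem123, C1s, a complement protease, and Rarres1, and most like Igf1 alone were Plxnb2 and the lysosomal enzymes Naglu and Hexa.

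The genes around the 10 were counted from lists that were likewise chosen with earlier results known. Of all genes tested, 6.78% were called higher at the lesion than in rostral cord. Of 12 genes for TREM2 signalling and its transcription factors, 7 were higher at the lesion than rostrally and 0 lower by limma: Syk, the kinase recruited by TYROBP, Vav1, Pik3cg, Inpp5d, Adam10, Mitf and Tfec. Inpp5d, a phosphatase that restrains the pathway, was higher by 1.23 ± 0.23, and Adam10, which sheds TREM2, by 0.35 ± 0.12. Of 20 other activated phagocyte genes tested, 15 were higher and 0 lower by limma, among them Apoe, a ligand of TREM2, by 1.29 ± 0.25, and the lysosomal proteases Ctsb by 1.41 ± 0.28 and Ctsd by 1.47 ± 0.24. Of 13 ligands and partners, 3 were higher, Apoe, Ctsl and Itgb2, and 0 lower by limma, while Clu differed by 0.55 ± 0.24. The list medians were 1.12, 1.44 and 0.88, against -0.02 over all genes and 2.66 for the 10 genes.

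General and resting markers moved in the same direction at the lesion. Of all 15210 genes tested there against rostral cord, 1031 (6.78%) were called higher and 1953 lower. Of 10 pan-myeloid genes 5 were higher, with a median of 1.51, Csf1r by 1.21 ± 0.37, while Aif1 (1.24 ± 0.47) and Fcer1g (1.44 ± 0.52) did not pass. Of 9 homeostatic microglia genes tested 5 were higher, with a median of 0.72, among them Cx3cr1 by 0.89 ± 0.29 and Gpr34 by 1.05 ± 0.23. Of the other cell types, 5 of 6 neuronal genes were lower and 4 of 6 Schwann cell genes higher, and 0 of 6 astrocyte, 0 of 6 oligodendrocyte, 0 of 5 endothelial, 0 of 5 fibroblast and 0 of 4 motor neuron genes passed in either direction by limma. Pigment cells also express Gpnmb. The pigment cell genes summed to 2.25 to 2.80 FPKM at the lesion, and 0 of 2 tested passed by limma. Dct was not listed and Slc45a2 was at the floor in every library. Of neutrophil, T cell, dendritic cell and blood-derived or border macrophage genes, 1 each was higher. The part of these lists in the lesion levels was not tested.

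In region 1 against region 2 the activated and the general list had like medians, 1.48 and 1.46, with every gene tested positive in both. Of all genes tested, 6.86% were called higher. Of the 20 activated phagocyte genes tested 15 were higher, Apoe by 0.92 ± 0.25 and Ctsd by 0.90 ± 0.24, and of the TREM2 signalling genes 5 of 12, among them Adam10 (0.47 ± 0.12) and Adam17 (0.76 ± 0.23), the second TREM2 sheddase. Of the 13 ligands and partners 6 were higher, Ctsl by 1.02 ± 0.27. Of 10 pan-myeloid genes 0 passed by limma, and of 9 homeostatic genes 1, Olfml3, with a median of 0.42. Beside them 4 of 5 fibroblast, 4 of 6 Schwann cell and 5 of 6 oligodendrocyte genes were higher, and the part of these cells was not tested. For stimulation, 0 genes of these lists passed by limma in region 1 or region 4, with 19 of 20 activated phagocyte genes positive in region 1 and 0 of 20 in region 4.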

How the data were processed

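The authors sequenced paired 51-bp reads of ribosomal RNA-depleted libraries, aligned them to Rnor6 with TopHat2 2.1.0 and estimated levels with Cufflinks 2.2.1. The values the authors deposited are FPKM per gene, with values below 0.1 raised to 0.1. The annotation version and the strand setting are not given in the sources used here, so overlapping genes are uncertain. FPKM values carry no read numbers, and the read totals the study lists were not used here. A ± after a log2 difference is the SE from limma. After a distance from the pan-myeloid mean it is the SD over animals.

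FPKM values were log2-transformed and the 15210 genes with at least 1 FPKM in any of 20 libraries tested with limma 3.58.1 in R 4.3.3 (lmFit, eBayes with trend), with Benjamini-Hochberg adjustment over all of them and a threshold of 0.05. Stimulation was fitted region by region, on 4 libraries each, and regions in a joint model of the 20 libraries with 1 mean for each, and differences of effects on differences within animals. The fits were also run on simulated data, and the outcome is not reported here. A difference is the log2 of a ratio of floored FPKM. Neighbouring regions come from the same animals, and animal as a block was an alternative. Named genes were the 10, the 3 most abundant of each list and the most alike genes, and genes of a list that passed were named after their values were seen, as were S100a9 and Cd3e for their values in 1 animal. Some genes that this rule names are not reported here. The 10 genes and the lists were chosen with earlier results of these data known. Promoter sequences are from RefSeq, GRCr8. Tables were handled with Python 3.11.15, numpy 2.4.6 and pandas 2.3.3, and plots made with matplotlib 3.10.9. Alternatives were another pseudocount, other filters, quantile and upper-quartile scaling, no trend, a single model, blocks by number or animal, a mean per region and group, and leaving out each animal.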

Additional observations from a re-analysis of the deposited data

Results flagged for a closer look

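Of 50 sets of 4 animals (10 genes in 5 regions), 10 had a library far from the other 3 by Dixon's criterion on log2 FPKM, where chance gives about 1 in 20. In 8 of them stimulated animal 2 was the highest in region 2: Gpnmb at 22.5 FPKM, Trem2 at 12.3, Tyrobp at 66.3, Cd68 at 11.8, Itgax at 0.480, Igf1 at 6.39, Msr1 at 0.572 and Clec7a at 4.63. These are values of 1 library and are not independent. For Itgax and Msr1 the other 3 libraries were tied at the floor of 0.1 FPKM, where any value above it meets the criterion. Stimulated animal 2 was also the highest for Gpnmb in region 5, at 122 FPKM, and the lowest for Igf1 at the lesion, at 18.0 FPKM.

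For 5 genes both stimulated animals moved one way in region 1 and the other way at the lesion. The within-animal difference between the effects was 3.22 for Gpnmb, 2.72 for Cd68, 2.63 for Itgax, 3.63 for Msr1 and 3.22 for Clec7a on the log2 scale, each with an adjusted p of 0.52 by limma, so the difference did not pass the test.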

How the results depend on the processing

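Results depended most on which animals were kept. Leaving out 1 animal at a time, the number of the 10 genes called ranged from 2 to 10 for the lesion against rostral cord, 0 to 8 for the lesion against caudal cord, 0 to 6 for caudal against rostral cord, 0 to 10 for region 1 against region 2 and 3 to 5 for region 3 against region 1. For stimulation it ranged from 0 to 6 in region 2, 0 to 1 in region 4 and 0 to 2 in region 5, and from 0 to 7 for the effect in region 1 against that in region 4. A left-out control or stimulated animal leaves 1 in its group, which is then assumed to vary like the others. On log2(FPKM + 1) 8 genes were called for the lesion against rostral cord, 1 for the lesion against caudal cord and 2 for caudal against rostral cord. It was 5 for region 3 against region 1 and 4 for region 1 against region 2. Without a filter 6 were called for the lesion against rostral cord, where Tyrobp and Clec7a no longer passed. The count was then 0 for the lesion against caudal cord and 0 for caudal against rostral cord. For region 3 against region 1 it was 3, and for region 1 against region 2 also 3. For caudal against rostral cord quantile normalization, upper-quartile scaling and a mean per region and group gave 2 each.

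Sign changes were sought in the contrasts between regions of the paragraph above, stimulation in regions 1 and 4 and the differences of effects. The differences below changed sign in at least 1 alternative. None had passed with all animals and the settings of the report, Spp1 for the effect in region 1 against that in region 4 passed without stimulated animal 1, and the cause was not tested. Cst7 in caudal against rostral cord was -0.081 with quantile normalization and -0.056 with upper-quartile scaling. For the effect in region 1 against that in region 2, log2(FPKM + 1) gave 0.011 for Trem2, 0.17 for Cd68, 0.044 for Igf1 and 0.68 for Clec7a, quantile normalization 0.12 for Trem2 and 0.10 for Igf1, and upper-quartile scaling 0.11 for Trem2 and 0.048 for Igf1. Leaving out 1 animal at a time, this difference ranged from -0.077 to 2.13 for Gpnmb, -1.20 to 0.63 for Spp1, -0.96 to 0.92 for Trem2, -1.40 to 0.69 for Tyrobp, -1.95 to 1.34 for Cd68, -0.74 to 0.58 for Igf1 and -2.51 to 1.07 for Clec7a, with stimulated animal 2 left out at the upper end of each. In the same way Cst7 in caudal against rostral cord ranged from -0.035 to 0.15, Spp1 and Tyrobp in region 3 against region 1 from -0.61 to 1.13 and -0.77 to 0.034, Spp1 under stimulation in region 1 from -0.81 to 4.19, Trem2 and Tyrobp under stimulation in region 4 from -1.02 to 0.12 and -0.77 to 0.17, and Spp1 for the effect in region 1 against that in region 4 from -0.49 to 5.42. Of 1100 recomputed gene values in the comparisons searched, 983 kept direction and side of the threshold, 57 lost it, 33 gained it and 27 changed sign. Stimulation in regions 2, 3 and 5 and region 4 against region 1 were not among them. Without 1 animal, 2 to 8 of the 10 genes were positive for stimulation in region 3. In region 2, 5 were positive without stimulated animal 2 and 10 with all animals.

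Over all genes, 2984 were called for the lesion against rostral cord, 4842 with quantile normalization, 4602 with upper-quartile scaling and 523 (without control 2) to 4909 (without stimulated 2) without 1 animal. For the lesion against caudal cord it was 1216, 578 without a filter, 470 and 628 under the scalings, 1966 with the animal block, 522 with a mean per region and group, and 5 to 1097 without 1 animal (5 without control 1, 22 without control 2). For caudal against rostral cord 657 became 1109 and 1170 under the scalings, with 435 higher and 674 lower, then 419 and 751, against 422 and 235, and 54 (without stimulated 1) to 1237 (without stimulated 2) were called without 1 animal. For region 1 against region 2 1310 became 698 without a filter and 2246 with upper-quartile scaling, and ranged from 26 (without stimulated 1) to 3674 (without stimulated 2) when 1 animal was left out. The higher and lower genes at the lesion against caudal cord were 142 and 1074, 195 and 275 with quantile normalization, 329 and 299 with upper-quartile scaling, those of the lesion against rostral cord 1031 and 1953, then 2115 and 2487 with upper-quartile scaling, and those of region 1 against region 2 1043 and 267, then 943 and 841, and 1316 and 930.

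The replicate numbers name different animals, and same-numbered animals did not deviate together (r from -0.21 to 0.32 over the regions). With the number as a replicate block, 2 of the 10 genes were called for stimulation in region 5 (443 genes in all, 3 without the block) and 0 by limma in the other regions. With crossed numbers, chosen after seeing the data, 1 of the 10 was called in region 4 (118 genes in all) and 0 elsewhere by limma. With animal as a block the counts of the 10 genes called stayed as they were in the 5 contrasts between regions above, and Cst7 was added for region 4 against region 1. 2 animals per group limit every stimulation result.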
